A study of Mus musculus with 2 samples.

Results

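Injured tubule cells that carry Havcr1 transcripts were examined in single-cell libraries from post-ischaemic mouse kidney. A cell was taken when its barcode had at least 500 unique molecular identifiers (UMIs, counts of distinct captured transcripts), 200 or more genes and no more than 50% mitochondrial UMIs, and when it held at least 3 Havcr1 UMIs, fewer than 5 UMIs each of Slc12a1 and Slc12a3, and no UMI of Ptprc. The Slc12a1 and Slc12a3 limits kept out cells rich in thick ascending limb and distal convoluted tubule transcripts, and the Ptprc limit kept out leukocytes. Of 19478 kept cells 776 qualified, 552 in the control library and 224 in the haplodeficient library. Because Havcr1 counts chose these cells, Havcr1 values are given only as a description.

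The control library came from kidney of Cre- mice and the haplodeficient library from Cdh5-CreERT2; Phd3f/+ mice. Both had undergone unilateral renal ischaemia-reperfusion injury, received 4 tamoxifen injections afterwards and were analysed on day 14, and both carry batch number 1. Phd3 is the hydroxylase gene also named Egln3. In the haplodeficient mice the tamoxifen-dependent Cre is driven by Cdh5, an endothelial promoter, so deletion of the floxed allele is directed to endothelial cells and not to the tubule cells described here, and the other allele is unfloxed. Egln3 itself was at 3.81 CPM (UMIs per 1000000 UMIs of the summed cells) in control and 4.06 CPM in haplodeficient Havcr1-positive cells, and since these libraries count 3′ ends and the deleted part is not given in the sources used here, this level checks neither the deletion nor the labels. Whether the Cre- mice carried the floxed allele, and how many mice gave each library, was not stated. With 1 library per genotype no difference between them has a replicate check and none was tested, and every interval below covers counting error alone.

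Havcr1 encodes kidney injury molecule 1, a surface receptor that binds phosphatidylserine and lets tubule cells take up dying neighbours, and it is scarcely made by healthy tubules. After ischaemia most injured proximal cells return to their transporting state, whereas some persist in a failed-repair state, which is known for the adhesion molecule Vcam1, complement C3, NF-kappaB targets and chemokines, and for loss of apical transport and fatty acid oxidation. The keratin Krt20 is a further injury marker of these cells.

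The libraries held 134190236 (control) and 114668145 (haplodeficient) UMIs, and 9452 and 10026 cells were kept, with medians of 9160 and 5861.5 UMIs per cell. The 2 libraries shared 28 of the kept barcodes. Havcr1-positive cells were deeper than the average cell and close to each other in depth, with a median of 18433 UMIs in control and 18220 in haplodeficient cells. Their median mitochondrial share was 7.32% in control and 3.61% in haplodeficient cells.

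At least 3 Havcr1 UMIs were found in 613 control and 273 haplodeficient cells before the other limits. Slc12a1 removed 34 and 19 of these, Slc12a3 removed 6 and 2, and Ptprc removed 26 and 34, with some cells removed by more than 1 limit. The remaining cells were 5.84% (95% Clopper-Pearson interval 5.38 to 6.33) of kept control cells and 2.23% (1.95 to 2.54) of kept haplodeficient cells, a difference of -3.61 percentage points (Newcombe interval -4.17 to -3.06). The direction depends on the denominator. Over Havcr1-positive cells plus proximal cells without Havcr1 (defined below), the shares were 19.2% (17.8 to 20.7) and 42.9% (38.6 to 47.3), a difference of 23.7 points (19.3 to 28.2) the other way. The second denominator held 2320 control and 298 haplodeficient Havcr1-negative proximal cells, and how many proximal cells survived dissociation, capture and the mitochondrial limit in each cannot be told apart from how many the kidneys held.

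Havcr1 (ENSMUSG00000040405, chr11:46735080-46779578, plus strand, GRCm38) had a median of 9 UMIs per chosen cell in the control (quartiles 5 and 20, maximum 215) and 7 in the haplodeficient library (quartiles 4 and 15, maximum 158). These cells held 85.5% and 73.6% of all Havcr1 UMIs of kept cells. Around the threshold the other markers were found on both sides. Control cells with 2 Havcr1 UMIs, just outside the limit (119 cells), had Vcam1 at 295 CPM, C3 at 655 CPM and Lrp2 at 886 CPM, and those with 3, just inside (69 cells), had 414, 496 and 791 CPM. In the haplodeficient library the 44 cells with 2 UMIs had Vcam1 at 304, C3 at 207 and Lrp2 at 397 CPM, and the 33 cells with 3 had 392, 418 and 403 CPM. The limit cuts a range of Havcr1 levels, and cells just outside it also carried these markers.

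To show what else these cells carry, they were set beside Havcr1-negative proximal cells, which had 0 Havcr1 UMIs, at least 3 UMIs of Lrp2 (megalin, the endocytic receptor of the proximal tubule) and the same other limits. Both sets were chosen by gene counts, so their differences are given as a description. UMIs were summed over the cells of a set within each library and scaled to CPM, and a log2 ratio was taken after adding 5 CPM to both values. Genes entered (were eligible) when the 2 sets averaged 50 CPM or more and held 30 UMIs or more together. A gene scarce in Havcr1-negative cells could thus enter only when it was high in Havcr1-positive cells. Counts below of eligible listed genes that were higher in Havcr1-positive cells therefore follow in part from this minimum. A gene was called past the size rule when its log2 ratio was at least 1 in size and its 95% Poisson intervals did not overlap. Levels were not compared between genes, since 3′ tags are captured unequally from gene to gene. In the control library 10.3% of 3234 eligible genes were called higher and 5.81% lower in Havcr1-positive cells, and in the haplodeficient library 3.5% and 4.77% of 3540. Over every eligible gene the log2 ratios had medians of 0.28 and 0.08. Of these ratios 2190 were higher and 1044 lower in the control, and 2056 higher and 1484 lower in the haplodeficient library. The counts by list below stand beside these. The Havcr1-negative cells of the haplodeficient library carried more stromal transcripts than those of the control, with 6 stromal markers summing to 282 against 8.95 CPM, and the smooth muscle gene Tagln at 651 against 4.63 CPM. The part that these transcripts play in the comparisons with Havcr1-negative cells was not tested.

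The label of injured tubule cells held against its markers. Vcam1 (ENSMUSG00000027962, chr3:116109949-116129688, minus strand), which binds integrins on leukocytes, was at 780 CPM (765 to 796) in control and 834 CPM (810 to 858) in haplodeficient Havcr1-positive cells, against 51.2 and 199 CPM in Havcr1-negative proximal cells. C3 (ENSMUSG00000024164, chr17:57203970-57228136, minus strand), the central complement component, was at 1337 CPM (1317 to 1358) and 575 CPM (555 to 595), against 113 and 231 CPM. Krt20 (ENSMUSG00000035775, chr11:99428403-99438150, minus strand) was at 48.2 CPM (44.4 to 52.2) and 33.9 CPM (29.2 to 39.0), against 1.37 and 2.12 CPM. All 3 were thus higher in Havcr1-positive cells of both libraries, Krt20 at levels under the 50 CPM minimum.

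Since deeper cells show more genes, each cell was also thinned at random to 2000 UMIs, which left 547 control and 224 haplodeficient Havcr1-positive cells, with 5 shallower control cells left out. After thinning, 56.1% (51.9 to 60.3) of control cells and 53.1% (46.4 to 59.8) of haplodeficient cells had a Vcam1 UMI, compared with 84.6% and 87.9% unthinned. For C3 the thinned shares were 66.5% (62.4 to 70.5) and 46.4% (39.8 to 53.2), and for Krt20 6.76% (4.81 to 9.20) and 4.46% (2.16 to 8.06). Free RNA in the droplets also gives such UMIs, and cells with at least 3 Ptprc UMIs, a leukocyte set that should lack tubule transcripts, showed Vcam1 in 8.48% and 7.47%, C3 in 7.23% and 9.41%, and Krt20 in 0 of 719 (which allows up to 0.417%) and 0.0970% of thinned cells. Any Vcam1 or C3 made by the leukocytes themselves also counts in these shares and was not separated from free RNA. The leukocytes had medians of 6719.5 and 5218 UMIs before thinning. The shares in Havcr1-positive cells lay above these in both libraries.

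Vcam1 and C3 were found in the same thinned cell in 41.7% (37.5 to 45.9) of control cells and 29.9% (24.0 to 36.4) of haplodeficient cells. Whether these shares exceed what the separate shares of Vcam1 and C3 would give was not tested. Cells with Vcam1 but no C3 were 14.4% and 23.2%, and cells with C3 but no Vcam1 24.9% and 16.5%. Neither transcript was found in 19.0% (15.8 to 22.6) and 30.4% (24.4 to 36.8).

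The injury and dedifferentiation genes were high in Havcr1-positive cells. Of 24 listed genes 17 were eligible in the control library, all 17 higher than in Havcr1-negative proximal cells and 15 of them past the size rule, with a median log2 ratio of 2.44. In the haplodeficient library 16 of 18 eligible genes were higher, 10 of them past the size rule, with a median of 1.21. Spp1, which encodes the secreted phosphoprotein osteopontin, made up 26915 CPM (26824 to 27007) of the control and 25931 CPM (25799 to 26064) of the haplodeficient cells, against 4085 and 6098 CPM in Havcr1-negative cells. Cd44, a hyaluronan and osteopontin receptor, was at 127 and 133 CPM, against 5.96 and 20.2 CPM. The calcium-binding protein gene S100a6 stood at 1041 CPM in control and 2386 CPM in haplodeficient cells, with log2 ratios to Havcr1-negative cells of 3.98 and 2.64. Lgals3, encoding the lectin galectin-3, was at 282 and 437 CPM, against 37.9 and 94.6 CPM. The exceptions in the haplodeficient library were Clu (418 against 512 CPM) and Vim (287 against 297 CPM), and Vim is also a stromal gene. The plot of injury and failed-repair genes shows Spp1 and Cd44 among others for both sets and both libraries. S100a6, Lgals3, Clu and Vim are not drawn in it.

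**Figure D1:**
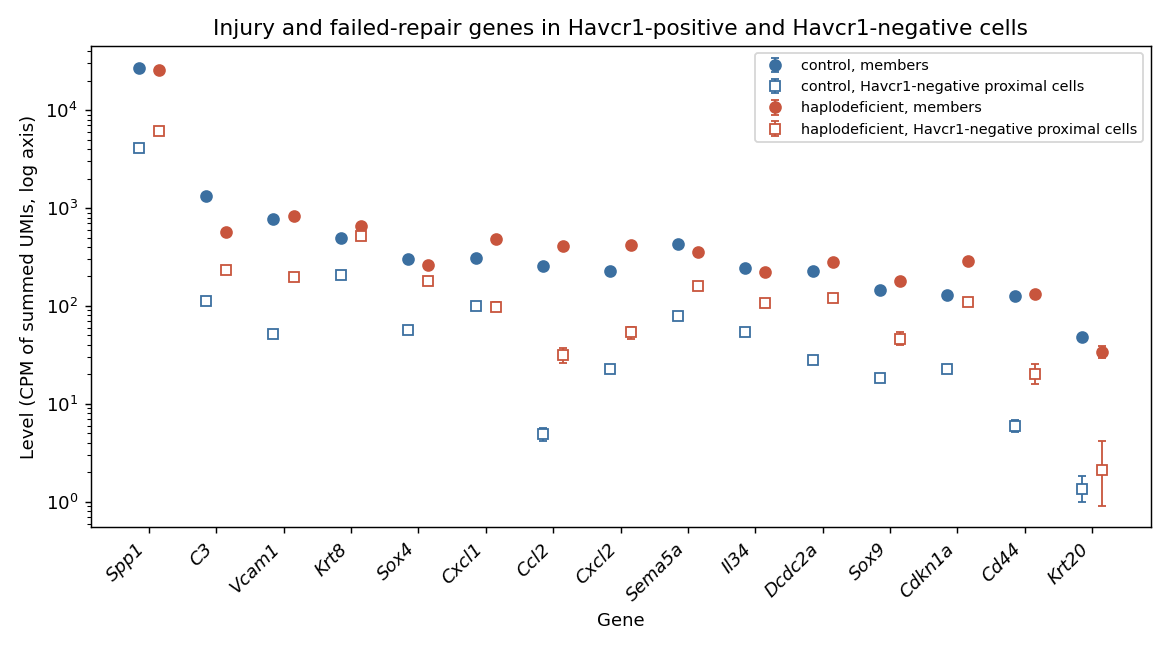
Summed levels of 15 injury and failed-repair genes (CPM, log axis) in Havcr1-positive cells (filled circles, called members in the key) and Havcr1-negative proximal cells (open squares) of each library, with 95% Poisson intervals, drawn where larger than the symbol. The genes drawn were a choice, and each lay higher in the Havcr1-positive cells of both libraries. Clu, Vim and Itgb8, the listed genes that were lower in those of the haplodeficient library, are not drawn. C3 was at 1337 CPM in control and 575 CPM in haplodeficient cells, and Vcam1 at 780 and 834 CPM.

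Failed-repair genes followed the same pattern. All 18 eligible genes of 20 were higher in the control Havcr1-positive cells (16 past the size rule, median log2 ratio 2.72), and 17 of 18 in the haplodeficient cells (11 past the size rule, median 1.11). Ccl2, which encodes a chemokine for monocytes, had the largest ratio of the list in both libraries. It was at 256 CPM (247 to 265) in control and 405 CPM (389 to 422) in haplodeficient cells, against 4.88 and 31.3 CPM. Il34, a ligand of the macrophage growth factor receptor, was at 244 and 224 CPM, against 54.1 and 107 CPM. The platelet-derived growth factor gene Pdgfd was at 172 and 189 CPM, against 19.1 and 96.4 CPM, and Pdgfb at 122 and 106 CPM, against 24.98 and 66.1 CPM. Tgfb2 was at 68.6 and 38.3 CPM, against 8.98 and 33.7 CPM, so that in the haplodeficient library its log2 ratio to Havcr1-negative cells was 0.16. Itgb8, an integrin subunit that activates latent TGF-beta, was the listed gene with the smallest ratio in the control (0.08) and the lowest in the haplodeficient library (-0.20).

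Chemokine and NF-kappaB genes were likewise higher in Havcr1-positive cells, in 12 of 12 eligible genes of each library (10 past the size rule in the control, 9 in the haplodeficient library). The list held 24 genes. Those scarce in Havcr1-negative cells were eligible only if high in Havcr1-positive cells, so these counts follow in part from the minimum. Ccl5, which attracts T cells and monocytes, was at 174 CPM (167 to 182) and 111 CPM (103 to 120), against 4.66 and 3.45 CPM. The neutrophil chemokine Cxcl1 was at 309 CPM (299 to 319) and 481 CPM (463 to 500), against 99.9 and 98.0 CPM, and its relative Cxcl2 at 225 and 424 CPM, against 23.0 and 53.7 CPM. Nfkbia, the NF-kappaB inhibitor that is itself a target of the factor, was at 395 and 513 CPM, against 134 and 200 CPM. Few cells carried some of these transcripts, with Ccl2 found in 175 of 552 control and 65 of 224 haplodeficient cells and Ccl5 in 127 and 33. After thinning, a Ccl2 UMI was in 16.6% (13.6 to 20.03) and 17.4% (12.7 to 23.0) of Havcr1-positive cells, in 0.489% and 1.40% of Havcr1-negative proximal cells, and in 13.2% and 13.1% of leukocytes, which make Ccl2 themselves. Leukocytes also held Ccl5, at 220 CPM in control and 920 CPM in haplodeficient cells.

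The promoters of these genes were searched for the letters of an NF-kappaB motif. The list was made in part of known NF-kappaB genes, so a high share of the motif in it follows from its choice. The 250 bases before each gene's start in RefSeq (GRCm38.p6) were searched, and 15 of the 24 listed chemokine and NF-kappaB genes had an entry there. A gene counted once, when any of its promoters held the letters. GGGA and TTCC with any 2 bases between them, on either strand, were present in 7 of the 15. These were Cxcl1, Cxcl2, Cxcl10, Csf1, Ltb, Nfkbia and Nfkb2. Of all 27025 genes with a promoter, 1.36% held the letters. Of the other lists, 2 of 13 failed-repair promoters (Cxcl1 and Cxcl2), none of 20 injury gene promoters and none of 23 pan-proximal promoters held them. Shown 5′ to 3′ on the gene's strand, with the match in capitals and 40 bases either side, the 3 chemokine promoters with it are:
Cxcl1: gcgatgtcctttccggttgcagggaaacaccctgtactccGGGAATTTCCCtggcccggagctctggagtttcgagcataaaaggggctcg
Cxcl2: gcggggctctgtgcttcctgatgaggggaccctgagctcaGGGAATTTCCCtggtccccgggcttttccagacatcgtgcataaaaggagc
Cxcl10: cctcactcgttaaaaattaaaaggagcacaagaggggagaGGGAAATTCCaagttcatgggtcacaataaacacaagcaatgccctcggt
They lie at chr5:90891134-90891224 (plus strand), chr5:90903762-90903852 (plus strand) and chr5:92348999-92349088 (minus strand), and the capitals begin 71, 97 and 159 bases before the start. In Cxcl1 and Cxcl2 the capitals hold 2 overlapping matches. A match describes the letters and does not show binding, and the promoters to show were picked after the matches had been seen. A stricter form, GGGA and TTTCC with any 1 base between them, was in 6 of the 15 promoters and in 0.414% of all.

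Residual proximal identity was lower but present. Of 25 pan-proximal genes, 22 of 23 eligible ones were lower in control Havcr1-positive cells than in Havcr1-negative proximal cells (14 past the size rule), with a median log2 ratio of -1.14 without Lrp2, which chose the reference. In the haplodeficient library 21 of 22 were lower (15 past the size rule), with the same median of -1.14. The sodium-phosphate cotransporter Slc34a1 was at 967 CPM (950 to 985) and 657 CPM (636 to 678), against 3310 and 2272 CPM, or 0.292 and 0.289 times the reference level. Lrp2 itself was at 510 and 341 CPM, against 1309 and 1192 CPM. Cubn, which encodes the megalin partner cubilin, was at 120 and 74.1 CPM, against 272 and 178 CPM.

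Miox, the inositol-degrading oxygenase, was at 391 and 225 CPM, against 1974 and 1169 CPM. Ass1, of arginine synthesis, was at 364 and 339 CPM, against 1739 and 1234 CPM. G6pc, the last enzyme of glucose release, was at 35.8 and 24.2 CPM, against 332 and 192 CPM, and Spp2 at 52.3 and 32.8 CPM, against 597 and 248 CPM. These last 2 had the largest negative ratios among the genes named by rank, with log2 ratios of -3.05 and -2.75 (G6pc) and -3.39 and -2.74 (Spp2). Smaller differences were found for the transcription factor gene Hnf4a, a regulator of proximal differentiation (115 and 94.9 CPM, against 186 and 176 CPM), and for Slc3a1, an amino acid transporter subunit (225 and 134 CPM, against 247 and 154 CPM). The water channel gene Aqp1 was the exception in both libraries, at 192 and 131 CPM against 180 and 91.4 CPM, and thin limb cells also express it.

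The CAAAGTNCA letters of the HNF4A motif were in 2 of 23 pan-proximal promoters, Lrp2 and Slc3a1, and in 1.40% of all genes with a promoter. The stricter CAAAGTCCA was in 1 of the 23 (0.451% of all). The Lrp2 window, at chr2:69586135-69586223 on the minus strand, is shown because Lrp2 defined the comparison cells, with the match in capitals beginning 154 bases before the start:
Lrp2: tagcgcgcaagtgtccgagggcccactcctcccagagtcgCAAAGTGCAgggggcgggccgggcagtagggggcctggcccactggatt
The HNF1 strings, GTTAAT and then any 1 base followed by ATTAAC or by ATT alone (0.0111% and 0.440% of all genes), were in no promoter of the 4 lists searched.

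Genes of both early and late proximal segments were found in Havcr1-positive cells, mostly at lower levels. Of S1 and S2 genes 9 of 10 eligible were lower in the control and 8 of 9 in the haplodeficient library, and of S3 genes 6 of 8 and 2 of 4. Slc5a2, the glucose cotransporter SGLT2, was at 152 and 144 CPM, against 493 and 427 CPM in Havcr1-negative cells, and Slc5a12, a lactate transporter, at 216 and 137 CPM, against 659 and 536 CPM. The organic anion transporter gene Slc22a6 was at 121 and 43.0 CPM, against 381 and 149 CPM. Of the S3 genes, Acy3 was at 192 and 104 CPM, against 565 and 312 CPM, whereas Napsa and Atp11a were higher in Havcr1-positive cells of both libraries (975 and 741 CPM, against 592 and 541, for Napsa). Much of the Napsa was in cluster 7 (described below, 54 of the 776 cells), at 7019 CPM, and the other Havcr1-positive cells had 539 CPM. Gc, which encodes the vitamin D-binding protein, was the only S1 and S2 gene past the size rule in the higher direction, at 142 and 97.4 CPM against 53.7 and 45.4 CPM.

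Fatty acid oxidation genes were lower as well, in 16 of 17 eligible genes in the control (median log2 ratio -0.60) and 13 of 14 in the haplodeficient library (-0.36). Ehhadh, an enzyme of peroxisomal oxidation, was at 89.6 and 31.6 CPM, against 261 and 104 CPM. Acadl was the exception in both libraries (267 and 266 CPM, against 221 and 206 CPM). Glycolysis genes had median log2 ratios of -0.06 and -0.0042, with Pkm, the muscle-type pyruvate kinase, as the only eligible gene past the size rule, and only in the haplodeficient library (79.4 against 35.1 CPM). The 13 mitochondrially encoded genes were all lower in both libraries, with medians of -1.43 and -0.79, and the median mitochondrial shares of Havcr1-negative cells were 23.1% and 6.94%.

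The share of a cell's UMIs that came from the 25 pan-proximal genes varied widely among Havcr1-positive cells. In the control its median was 0.938% (quartiles 0.405 and 2.55%, range 0.0367 to 22.9%), and in the haplodeficient library 0.435% (quartiles 0.139 and 1.45%, range 0 to 13.1%). Havcr1-negative proximal cells, which were chosen by Lrp2, had medians of 4.35% and 2.73%, and leukocytes, as the background, 0.103% and 0.0173%. Most Havcr1-positive cells lay between these sets, and some reached down into the leukocyte range. Free RNA can hold part of these UMIs. Umod, which the cells should lack, put free RNA at 4.03% of UMIs in control and 2.03% in haplodeficient Havcr1-positive cells, and leukocyte markers put it at 3.69% and 0.998%. The median over 42 and 46 markers of other cell classes gave 14.8% and 7.18%, with single markers from 0 to 85.1% and 0 to 80.3%.

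**Figure D2:**
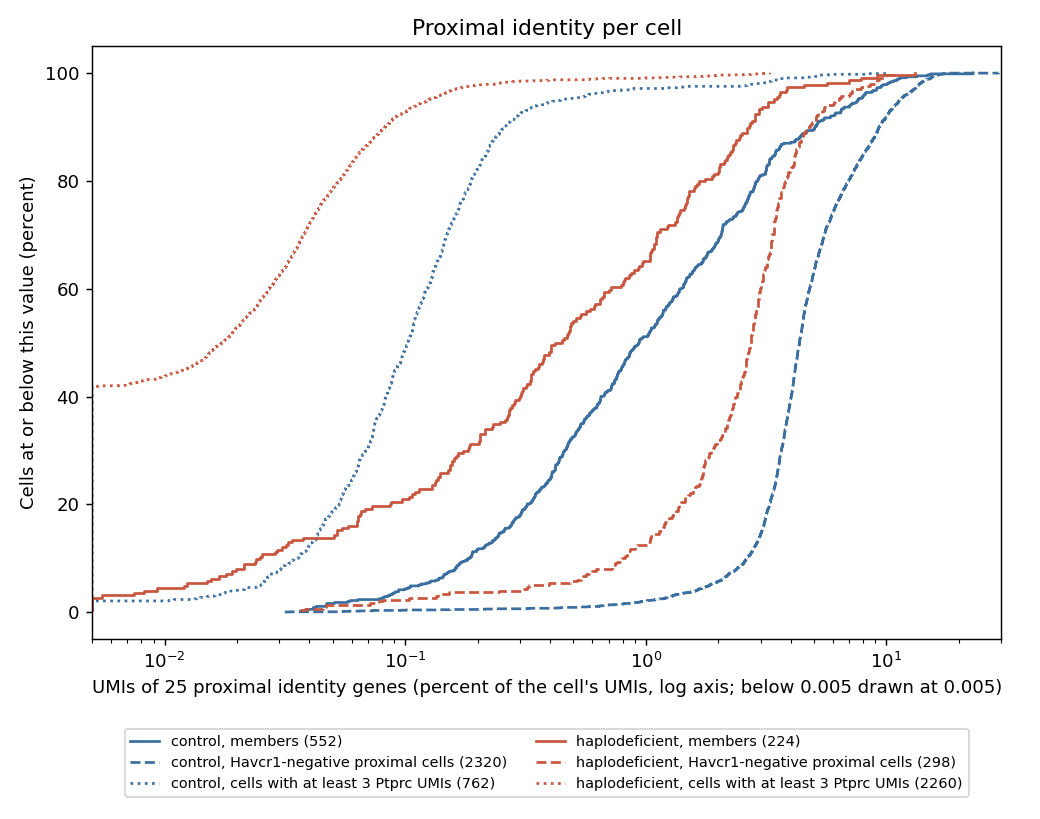
Cumulative distributions of the share of each cell's UMIs in 25 pan-proximal genes (percent, log axis, values under 0.005 drawn at 0.005) for Havcr1-positive cells (solid, called members in the key), Havcr1-negative proximal cells (dashed) and leukocytes (dotted) of each library. The medians of the solid curves, 0.938% in control and 0.435% in haplodeficient cells, lie between those of the others. The curves do not stay apart over their whole range. The highest haplodeficient Havcr1-positive cell was at 13.1% and the highest Havcr1-negative cell of that library at 10.8%.

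Within Havcr1-positive cells the markers varied with the level of Havcr1. Cells were put into 3 classes by Havcr1 UMIs per 10000 UMIs, with limits at 3.55 and 8.77 set on both libraries together. In the control the classes of low, middle and high Havcr1 held 166, 177 and 209 cells, with Vcam1 at 414, 790 and 1211 CPM, C3 at 889, 1398 and 1820 CPM, and Krt20 at 16.0, 32.7 and 101 CPM. In the haplodeficient library they held 93, 81 and 50 cells, with Vcam1 at 541, 778 and 1598 CPM, C3 at 319, 693 and 1026 CPM, and Krt20 at 23.7, 41.8 and 47.7 CPM. The classes rest on the counts that chose the cells, so these values are a description. Proximal genes stood at 2.64, 2.03 and 0.977% of UMIs for control classes, and at 1.12, 1.23 and 0.785% for haplodeficient ones. The classes also differed in the genes of cluster 2 (below): Fst was at 120, 125 and 16.4 CPM and Cldn7 at 155, 119 and 62.0 CPM from low to high in control, and Cldn7 at 338, 131 and 38.6 CPM in haplodeficient cells. Ccl2 was highest in the high class of both libraries, at 472 CPM in control and 1041 CPM in haplodeficient cells. The low class was the deepest in both libraries, with medians of 25516.5 and 26107 UMIs, against 14420 and 15248.5 UMIs in the high class, since a fixed minimum of 3 UMIs admits low Havcr1 levels only in deep cells.

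Clustering of the 776 cells gave 7 clusters, which are named by number and leading genes and given no cell type. Their leading genes follow from the clustering and are not findings. Cluster 1 (121 control and 29 haplodeficient cells) was led by Mgp, Dock10, the smooth muscle gene Acta2 and Kcnip4, with Ccl2, Birc3 and Zeb1 also among its first 10. Cluster 2 (66 and 65 cells) was led by Plet1, Nupr1, Lcn2, Fst and Cldn7. Cluster 3 (82 and 48 cells) was led by Ccl7, Tagln, Ccl5 and Ccl2, cluster 4 (82 and 33) by Ugt2b37 and Camk1d, cluster 5 (95 and 16) by Slc22a6, Kap and Cyp4b1 together with globin genes, cluster 6 (58 and 27) by Gatm, Slc5a12 and Slc5a2, and cluster 7 (48 and 6) by Akr1c18, Cyp7b1 and Slc7a12. Likely doublets, called by Scrublet, made up 9.24% of control and 11.6% of haplodeficient Havcr1-positive cells, 14.0% of cluster 1, 16.0% of cluster 2 and 16.7% of cluster 7, and 2.31 to 9.41% of the others.

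The clusters differed in proximal content. The median share of UMIs in pan-proximal genes was 3.27% in cluster 5, 2.87% in cluster 7, 2.13% in cluster 6 and 1.24% in cluster 4, and 0.503% and 0.331% in the chemokine-rich clusters 1 and 3. In cluster 2 it was 0.114%, beside 0.103% in control and 0.0173% in haplodeficient leukocytes, and Lrp2 was at 59.0 CPM there against 568 CPM in the other Havcr1-positive cells. Cluster 2 also held the thin limb markers Cryab (2084 CPM), Fst (382 CPM), Bst1 (190 CPM) and Slc14a2 (60.8 CPM), so the label of injured proximal cells is not borne out there, and these cells are described only as Havcr1-positive. C3 was between 298 and 1796 CPM in the 7 clusters, while Vcam1 was between 369 and 1671 CPM in clusters 1 to 6 and at 54.7 CPM in cluster 7. Krt20 was highest in cluster 1, at 98.3 CPM, and lowest in cluster 4, at 7.27 CPM.

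**Figure D3:**
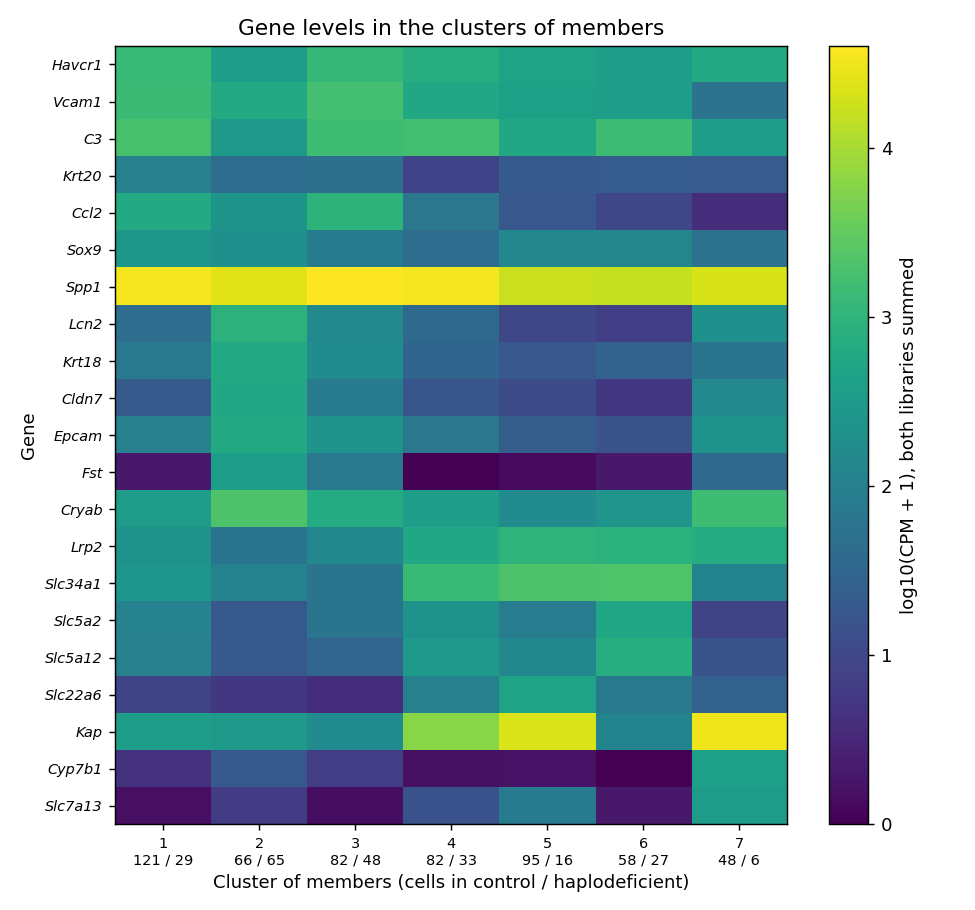
Level of 21 genes in each of the 7 clusters of Havcr1-positive cells (called members on the axis), as log10 of CPM plus 1 with both libraries summed; the numbers under each cluster are its cells in the control and the haplodeficient library. Spp1 was high throughout, Lrp2 and Slc34a1 were highest in clusters 5 and 6, and cluster 2 combined Lcn2, Krt18, Cldn7, Fst and Cryab with 59.0 CPM of Lrp2.

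Transcripts of other cell types were present to unlike extents in Havcr1-positive cells. The 9 leukocyte markers other than Ptprc summed to 50.5 CPM in control and 79.9 CPM in haplodeficient cells, with Tyrobp at 3.97 and 7.76 CPM, against 1370 and 8006 CPM in free RNA. The 7 endothelial markers summed to 63.1 and 60.9 CPM, and the 6 stromal markers to 59.2 and 91.5 CPM, of which Acta2 gave 38.3 and 62.8 CPM in 31 and 22 cells. The 6 thick ascending limb markers other than Slc12a1 summed to 246 and 189 CPM, with Umod at 56.5 and 24.0 CPM. The 4 distal convoluted tubule markers other than Slc12a3 summed to 387 and 235 CPM, against 180 and 223 CPM in Havcr1-negative proximal cells and 278 and 232 CPM in free RNA. Sgms2 gave 357 and 208 CPM of this, while Slc12a3 was at 2.27 and 1.06 CPM and Pvalb at 0.162 and 0 CPM. The 6 thin limb markers summed to 879 and 1185 CPM, above both Havcr1-negative proximal cells (99.7 and 489 CPM) and free RNA (294 and 626 CPM). Cryab, also a stress chaperone, gave 712 and 947 CPM of this, and cluster 2 held most Fst and Bst1. The part of thin limb cells among the Havcr1-positive cells was not tested. Urothelial markers summed to 1.30 and 1.23 CPM, with 3 of 5 at 0 in each library. Principal cell markers summed to 92.1 and 35.5 CPM, with Aqp2 at 17.7 and 0.176 CPM, and intercalated cell markers to 45.6 and 13.8 CPM.

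The 2 libraries were then compared within Havcr1-positive cells, with the same CPM, pseudocount and size rule and with Havcr1, Slc12a1, Slc12a3 and Ptprc left out. Of 3549 eligible genes 2023 were higher and 1526 lower in haplodeficient cells, and the ratios of all 3549 had a median of 0.06. The size rule was passed by 13 (0.366%) with the higher level in haplodeficient cells and by 31 (0.873%) with the lower. This count of 44 moved with the setting: it was 14 when each cluster had the same weight in both libraries, 69 without likely doublets and 95 after thinning. The clusters came from these same expression values, so equal weights cannot tell the makeup of the cells apart from levels within them. Lower calls were 70.5% of all calls with summed UMIs and 53.3% with the mean of each cell's CPM. Genes named below follow a rank rule and the gene lists, and some are set beside their values in Havcr1-negative proximal cells.

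Complement C3 was lower in the haplodeficient library, at 575 CPM (555 to 595) against 1337 CPM (1317 to 1358), a ratio of 0.430 (0.414 to 0.446) and a log2 ratio of -1.21. It was lower in each of the 7 clusters with intervals apart, from 2058 to 955 CPM in cluster 1, 2062 to 747 CPM in cluster 4 and 1760 to 715 CPM in cluster 6. Its log2 ratio lay between -1.29 and -0.96 over 12 settings of choosing, scaling and weighting the cells. The other eligible complement genes were lower too by less than the size rule: factor B (Cfb) was at 149 against 238 CPM, Cfi at 53.6 against 67.7 CPM and C2 at 53.4 against 58.9 CPM. In Havcr1-negative proximal cells C3 differed the other way, at 231 CPM in the haplodeficient and 113 CPM in the control library.

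Vcam1 had a log2 ratio of 0.10 and the CPM ratio was 1.07 (1.03 to 1.11). By cluster it was higher in the haplodeficient library in 2 clusters (both with intervals apart) and lower in 5 (3 with intervals apart). Krt20 had a log2 ratio of -0.45 with intervals apart, and was lower in 6 of 7 clusters (2 with intervals apart). Spp1 had a log2 ratio of -0.05. Of the 4 markers Havcr1, Krt20, Vcam1 and C3, only 2 were eligible between libraries, Vcam1 and C3, and of these C3 was past the size rule. Krt20 lay under the minimum level, and Havcr1 was left out because it chose the cells.

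**Figure D4:**
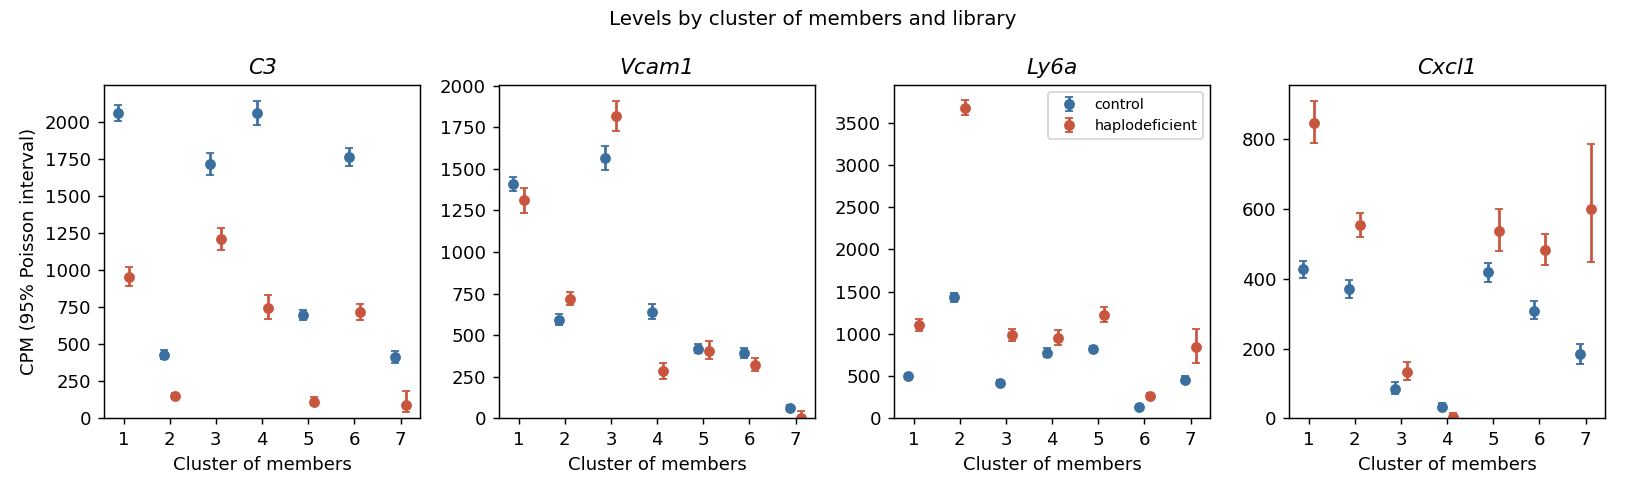
Levels of C3, Vcam1, Ly6a and Cxcl1 (CPM of summed UMIs with 95% Poisson intervals) in each of the 7 clusters of Havcr1-positive cells, control in blue and haplodeficient in red. C3 was lower and Ly6a higher in the haplodeficient library in every cluster, whereas Vcam1 differed in either direction.

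Injury genes as a list were higher in the haplodeficient library, in 16 of 18 eligible genes, beside 2023 of all 3549. Their median log2 ratio of 0.46 was 0.11 when clusters had equal weights in both libraries. The genes past the size rule were S100a6, at 2386 CPM (2346 to 2427) against 1041 CPM (1023 to 1060), and Anxa1, which encodes a phospholipid-binding protein, at 183 against 71.5 CPM, and their log2 ratios of 1.19 and 1.30 were 0.65 and 0.52 with equal cluster weights. The cyclin-dependent kinase inhibitor Cdkn1a was at 287 CPM (273 to 301) against 129 CPM (123 to 136), a log2 ratio of 1.12. Without cluster 2, which held 753 and 438 CPM of it, the ratio was -0.07, and with equal cluster weights it was 0.59. Cdkn1a was higher in the haplodeficient library in 6 of 7 clusters, 2 with intervals apart. Cldn7 (216 against 115 CPM) and Epcam (284 against 168 CPM), genes of epithelial junctions, were highest in cluster 2, at 557 and 614 CPM against 32.2 and 90.7 CPM in the other Havcr1-positive cells. In Havcr1-negative proximal cells the log2 ratios between libraries were 2.54 for S100a6 and 2.06 for Cdkn1a.

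Failed-repair genes did not differ in 1 direction, with 8 of 20 higher, 12 lower and a median of -0.10. C3 was the only gene of the list past the size rule. Birc3, an inhibitor of apoptosis and NF-kappaB target, was at 101 CPM (93.1 to 110) against 199 CPM (191 to 207), a log2 ratio of -0.94, and was lower in 7 of 7 clusters (4 with intervals apart). Ccl2 was higher, at 405 against 256 CPM (log2 ratio 0.65), as were Cxcl2, at 424 against 225 CPM (0.90), and Cxcl1, at 481 against 309 CPM (0.63). Cxcl1 was higher in 6 of 7 clusters with intervals apart and lower in cluster 4, where it had 2 UMIs in the haplodeficient library. Ccl5 was lower, at 111 against 174 CPM, and 24.9% of its haplodeficient UMIs were in 1 cell.

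The highest ratio of all eligible genes was that of Cxcl5, another neutrophil chemokine, at 93.7 CPM (85.9 to 102) in the haplodeficient and 16.8 CPM (14.6 to 19.2) in the control library, a log2 ratio of 2.18. Its UMIs were in 37 haplodeficient and 43 control cells, and without the cell that held most of them the levels were 74.2 and 13.7 CPM. Ccl7, just under the minimum level, was at 79.5 against 18.9 CPM, and at 44.2 against 15.6 CPM without the top cell of each library. Cxcl5 was highest in cluster 2, at 96.7 CPM, and Ccl7 in cluster 3, at 222 CPM.

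Several further genes past the size rule were higher in the haplodeficient cells. Ly6a, a surface protein of the Ly6 family, was at 1775 CPM (1741 to 1810) against 675 CPM (661 to 690), a log2 ratio of 1.39, and was higher in all 7 clusters with intervals apart. Crip1 was at 186 against 64.0 CPM, Isg15, an interferon-induced ubiquitin-like modifier, at 91.5 against 35.8 CPM, Tshz2 at 226 against 103 CPM (log2 ratio 1.10, and 0.38 with equal cluster weights), Fabp3 at 158 against 71.9 CPM and the protease inhibitor gene Timp2 at 112 against 52.0 CPM. Mt1, a metallothionein, was at 237 against 89.5 CPM, and the larger free RNA estimate covers 34.3% of the haplodeficient and 82.8% of the control level. The 6 eligible interferon-stimulated genes were all higher, with a median log2 ratio of 0.84, and Isg15 alone was past the size rule. Without cluster 2 the log2 ratios were 0.027 for Isg15, 0.25 for Ifitm3, 0.54 for Bst2, 0.61 for Ifi27 and -0.75 for Ifit3. Ifit3 was at 0.36 with cluster 2. With equal cluster weights Isg15 was at 0.95, Ifitm3 at 0.60, Bst2 at 0.65, Ifi27 at 0.54 and Ifit3 at -0.22. Ifit3 was lower in the haplodeficient library in 5 of 7 clusters, whereas Isg15, Ifitm3 and Bst2 were higher in 5 of 7 and Ifi27 in all 7. Of these genes Bst2, a tetherin that holds budding virus, was at 213 against 105 CPM, and Ifi27 at 420 against 252 CPM. Class I presentation genes H2-K1 (1395 against 953 CPM) and H2-D1 (1079 against 661 CPM) were higher, whereas the class II chain gene Cd74 was at 1193 and 1227 CPM.

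Proximal identity genes were lower in the haplodeficient Havcr1-positive cells, in 21 of 22 eligible genes with a median log2 ratio of -0.53. Kap, the androgen-regulated kidney protein of the proximal tubule, had the lowest ratio, at 2100 CPM (2063 to 2138) against 7658 CPM (7609 to 7707). It was found in 62 of 224 haplodeficient cells and 492 of 552 control cells, and 1 haplodeficient cell held 34.5% of its UMIs, without which its level there was 1392 CPM. After thinning it was in 14.3% (9.98 to 19.6) of haplodeficient and 51.9% (47.6 to 56.2) of control Havcr1-positive cells, but also in 1.41% and 35.3% (31.8 to 38.9) of leukocytes, a cell type that should lack it. Free RNA was put at 5.84% of its control level, or 21.4% at the larger estimate, and its part in the difference was not tested. Pck1, the gateway enzyme of gluconeogenesis, was at 65.3 against 202 CPM, a log2 ratio of -1.56. Slc34a1 (657 against 967 CPM), Lrp2 (341 against 510 CPM) and Dab2 (339 against 522 CPM) were lower by less than the size rule, and Amn, the membrane anchor of cubilin, was the only higher one (150 against 126 CPM).

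In Havcr1-negative proximal cells the log2 ratios between libraries were -1.95 for Kap, -1.65 for Pck1 and -0.54 for Slc34a1. The pan-proximal median in Havcr1-positive cells was closer to 0, at -0.26 without cluster 2 and -0.17 with equal cluster weights. Among other genes lower past the size rule were Sugct (21.5 against 82.8 CPM), the glutathione transferase Gsta2 (61.2 against 205 CPM), Slc22a6 (43.0 against 121 CPM), the fatty acid genes Ehhadh (31.6 against 89.6 CPM) and Eci3 (30.9 against 84.2 CPM), Slc5a10 (40.6 against 102 CPM), Gm42397 (37.7 against 114 CPM) and S100g (77.8 against 207 CPM). Equal cluster weights brought several log2 ratios under the size rule, from -1.86 to -0.72 for Kap, -1.56 to -0.67 for Pck1, -1.39 to -0.73 for Slc22a6, -1.37 to -0.74 for Ehhadh, -1.31 to -0.27 for Eci3 and -1.23 to -0.38 for Slc5a10. Gsta2, at -1.66 and -1.61, was lower in 7 of 7 clusters, 6 with intervals apart. S100g was at -1.36, and at -0.51 without likely doublets. For S100g the larger free RNA estimate covers 93.4% of the control and 96.8% of the haplodeficient level. Reads of Ly6a, Gsta2, H2-K1 and H2-D1, which have near-identical family members, may be split between copies.

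**Figure D5:**
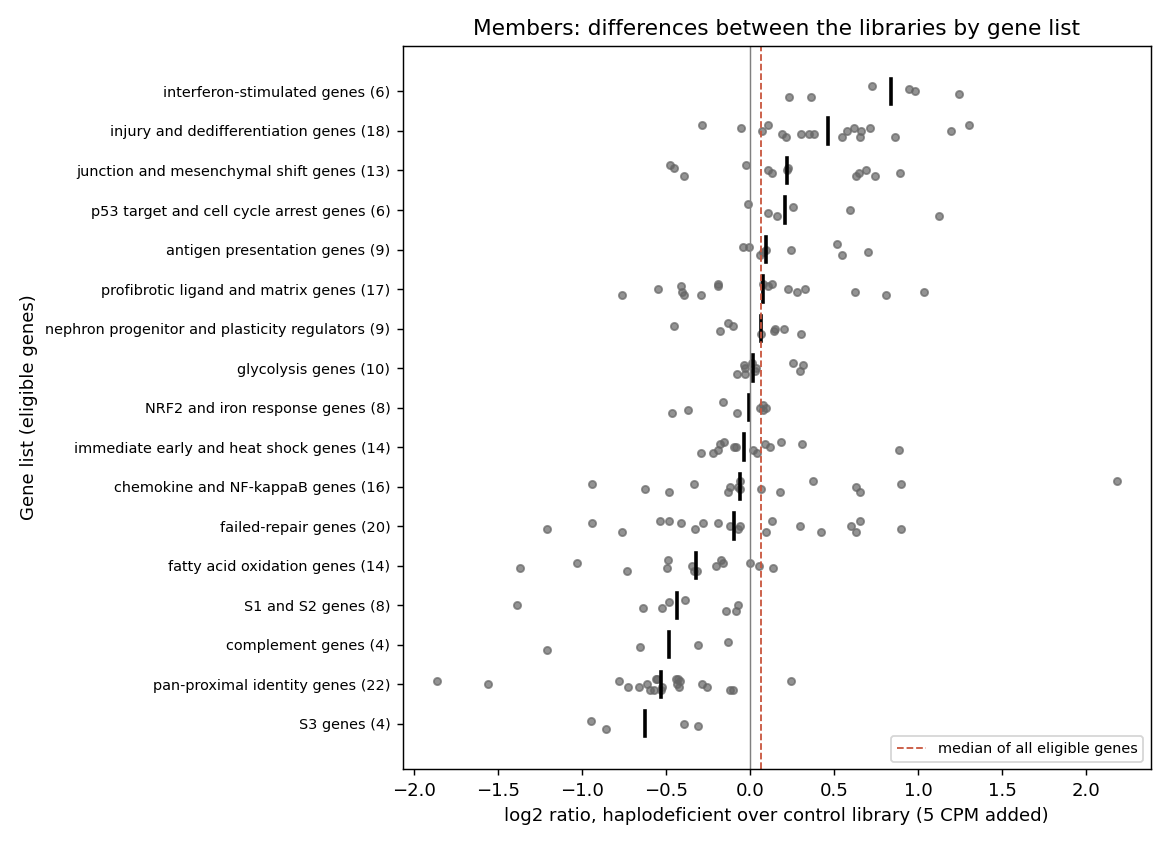
Log2 ratio between the libraries (haplodeficient over control, 5 CPM added) of each eligible gene in Havcr1-positive cells (called members in the title), by gene list; black bars are list medians, numbers in brackets are eligible genes and the dashed line is the median of all eligible genes, 0.06. Interferon-stimulated (0.84) and injury genes (0.46) lay to the right, and complement (-0.48), pan-proximal (-0.53) and S3 genes (-0.63) to the left. The S3 median rests on 4 genes, all lower over the summed cells. Of these Napsa, at -0.39, was higher in the haplodeficient library in 7 of 7 clusters (6 with intervals apart). It was at 0.52 with equal cluster weights.

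Several programmes differed little. Glycolysis genes had a median log2 ratio of 0.02 between libraries over 10 eligible genes, with Ldha at 440 and 438 CPM. Iron and NRF2 response genes had a median of -0.01 and immediate early genes one of -0.04, with Atf3, a stress-induced transcription factor, the farthest of the latter, at 1472 against 793 CPM. Profibrotic ligand and matrix genes were higher in 9 and lower in 8 of 17, with Sparc, a matrix glycoprotein, at 306 against 173 CPM and Tgfb2 at 38.3 against 68.6 CPM. Of the regulators linked to nephron development and plasticity, Sox9 was at 181 CPM in the haplodeficient and 146 CPM in the control cells, above 46.5 and 18.2 CPM in Havcr1-negative cells, and Pax8 at 241 against 332 CPM, lower in 7 of 7 clusters. Dividing-cell genes were too low to be eligible, none of 14 reaching the minimum. Mki67, the proliferation marker, was at 12.0 CPM in 13 haplodeficient cells and 3.97 CPM in 16 control cells, and in 0.893% (0.108 to 3.19) and 0.731% (0.200 to 1.86) of thinned cells. Ribosomal protein genes were higher in 72 of 84 (1 past the size rule), with a median of 0.24. Mitochondrially encoded genes differed more, and were lower in 11 of 13 (3 past the size rule), with a median of -0.80.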

How the data were processed

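Raw UMI counts per gene and barcode were deposited for both libraries as 10x matrices, made with Cell Ranger 4 per the file headers on mm10 per the submitters' processing notes; the annotation is not given in the sources used here. Libraries were 3′ v3.1 per the labels' protocols. Cell hashing named there was not used here. From the counts, cells were kept and chosen as stated in the report, UMIs were summed per library, and ratios, shares and exact intervals were computed with scipy 1.17.1 and numpy 2.4.6. Clusters came from scanpy 1.11.5 and leidenalg 0.10.2 (2000 variable genes, 20 components, 15 neighbours, resolution 0.6; settings taken from an exploratory run). Doublets were called with Scrublet in scanpy, at an assumed 0.8% per 1000 cells, and removed only as an alternative. Positions came from GENCODE M21 (GRCm38), which held 32158 of 32285 gene identifiers. The calculations were tested on simulated data.

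The Havcr1-positive cells, the gene lists and the comparisons were chosen with earlier results of these data known. Named genes are those of the lists, the 10 highest and 10 lowest eligible genes past the size rule between libraries, and the 15 highest and 10 lowest ranked by the smaller of the ratios to Havcr1-negative cells in the 2 libraries; which of them to describe was decided after their values were seen. The smaller free RNA estimate was preferred after both had been seen. Of 6 motif strings searched, the 2 shown were picked after the matches were seen. Alternatives varied the Havcr1 minimum, cell filters, doublets, thinning, pseudocount, gene minimum, scaling and reference cells.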

Additional observations from a re-analysis of the deposited data

Results flagged for a closer look

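Some effects differed in direction or size between sets, and none of these differences was tested. Profibrotic ligand and matrix genes had a median log2 ratio of Havcr1-positive to Havcr1-negative proximal cells of 1.70 for control and -0.05 for haplodeficient cells. In the haplodeficient library the Havcr1-negative cells also held Tnc at 90.6 CPM, Acta2 at 250 CPM and Tagln at 651 CPM, against 0.746, 4.75 and 4.63 CPM in the control. The ratio of haplodeficient to control library ran opposite ways in the 2 sets with intervals apart in both and a log2 ratio of at least 1 in size in either for 5 listed genes, and by less for others. C3 was at -1.21 (log2) in Havcr1-positive and 1.00 in Havcr1-negative proximal cells. For Ccn1, which encodes a matricellular protein, the values were -0.40 and 1.65, and for the transcription factor gene Sox4 -0.18 and 1.58. Jun was at -0.088 and 1.15, and the phosphatase gene Dusp1 at -0.16 and 1.10. The part of the stromal transcripts in these values was not tested.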

How the results depend on the processing

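No paired analysis was possible because each genotype has 1 library and no result comes from a test. Depth limits genes under about 50 CPM, where 1 cell can hold much of a gene's UMIs. The share difference (-3.61 points) was -4.43 with at least 2 Havcr1 UMIs, -3.01 with at least 5 and -4.79 with at most 25% mitochondrial UMIs. The count of 44 genes became 69 without likely doublets, 95 after thinning, 132 with a minimum of 10 CPM, 161 with none and 14 with equal cluster weights, an alternative chosen after seeing the data, as was leaving out cluster 2. The injury median between libraries (0.46) became 0.61 with at least 2 Havcr1 UMIs, 0.58 without doublets, 0.34 in cells with an Lrp2 or Cubn UMI, 0.61 after thinning, 0.35 with 10 CPM and with no minimum, 0.39 with median-of-ratios scaling, 0.54 with the mean of each cell's CPM and 0.11 with equal weights. The pan-proximal median (-0.53) became -0.32 in cells with Lrp2 or Cubn, -0.26 without cluster 2 and -0.17 with equal weights. Against Havcr1-negative cells that median (-1.14 in both libraries) was, in the control, -0.96 with at least 2 and -1.32 with at least 5 Havcr1 UMIs, -1.27 with at most 25% mitochondrial UMIs, -0.9996 with Lrp2 or Cubn, -1.68 with median-of-ratios scaling, -0.95 without cluster 2 and -1.35 with equal weights. In the haplodeficient library it was -1.19 with at least 5 Havcr1 UMIs, -1.31 without doublets, -0.78 with Lrp2 or Cubn, -1.31 after thinning, -1.20 with median-of-ratios scaling, -1.35 with the mean of each cell's CPM, -1.31 against cells chosen by Slc34a1, -0.66 without cluster 2 and -1.02 with equal weights. The failed-repair median (-0.10) lay between -0.18 and -0.04 under every alternative run. Cdkn1a (1.12) was at -0.066 without cluster 2 and at 0.59 with equal weights. Other named genes past the size rule kept their direction, but several came under the rule, among them Isg15 (1.24) at 0.027 without cluster 2, Mt1 (1.36) at 0.77, Timp2 (1.03) at 0.56 and Cyp4b1 (-1.03) at -0.60 with equal weights, and Ly6a (1.39) at 0.72 without cluster 2.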
